A study of Mus musculus with 9 samples.

Results

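The genes of hypoxia and glycolysis were followed in murine astrocytes, cultured brain cells that are labelled Ink4a-/- (a deletion at the locus of the Ink4a tumour suppressor) and were grown in high-glucose DMEM with serum. The 36 genes were chosen by name as parts of the glycolytic pathway or of the response driven by hypoxia-inducible factor (HIF), and all 36 were found in both deposited tables, out of 20076 genes with a value in either one. The cells carried an empty pcDNA puro vector (control), pcDNA HA-JICD1 puro (JICD1, the intracellular domain of the Notch ligand Jagged1 with an HA tag) or pcDNA NICD puro (NICD1, the intracellular domain of the Notch1 receptor). All 3 groups carry the Ink4a-/- label, and 3 libraries were labelled for each group. The labels name no low-oxygen treatment, and the sources used here do not say whether the cells were pools or single clones.

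Glycolysis splits glucose to pyruvate in the cytosol, and lactate dehydrogenase A then reduces pyruvate to lactate. HIF is a transcription factor whose alpha subunit is hydroxylated by the Egln prolyl hydroxylases and destroyed while oxygen is plentiful. When oxygen falls, HIF binds short DNA elements near genes for glucose uptake, glycolysis, vessel growth, mitophagy and collagen hydroxylation. Astrocytes are known as strongly glycolytic cells that release lactate.

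The authors' deposited tables give each gene 1 log2 ratio of a transfected group over control and 1 score between 0 and 1. They hold no value for a single library, so a ratio has no replicate error here, no test between groups could be made, depth is unknown, and "higher" or "lower" states only the direction of a ratio. A gene is called when its score is 0.8 or more, a threshold chosen with earlier results of these data known. The calls are thus made here, from the scores that the authors deposited. For Jag1 the authors' deposited tables list a log2 ratio of -1.39 (score 0.759) in the JICD1 comparison and 1.36 (score 0.819) with NICD1. For Notch1 they list 1.33 (score 0.735) and 1.77 (score 0.815). Both genes were thus called with NICD1 and neither for JICD1. Jag1 stood below control in the libraries labelled JICD1, though not called. The sources used here do not say how far the constructs' own transcripts enter these values. Cdkn2a, the gene of the Ink4a locus, goes against the shared genotype label for NICD1: the authors' deposited table lists it at 7.59 (score 0.827, called) with control inferred at the floor, and it has no JICD1 ratio. The locus also encodes Arf, and the sources used here do not say which of its exons are deleted or which gave the reads. Each comparison with NICD1 below is therefore one of libraries by their labels. Of 10 astrocyte markers, 8 had a ratio in the authors' deposited tables; Aqp4 and Gjb6 had none. Medians of the 8 were -0.78 and -0.70, and the one called was Sox9 with NICD1, at -1.64 (score 0.851) in the authors' deposited table. Gfap stood at -1.36 and -1.52 with low scores of 0.242 and 0.261 in the authors' deposited tables. Slc1a2 stood at 0.79 and 2.98 and S100b at 0.022 and 0.76 in the authors' deposited tables. Their scores were low too, at 0.162 and 0.283 for Slc1a2 and 0.136 and 0.173 for S100b. For Slc1a2 with NICD1, control was inferred at the floor. Fewer cells of a type and less RNA per cell cannot be told apart in bulk samples. Of 6 fibroblast and pericyte markers measured, 4 were called lower for JICD1 and 2 for NICD1 in the authors' deposited tables, with medians of -2.59 and -2.16; Pdgfrb stood at 0.083 for NICD1. Neuron markers also differed, with 3 of 4 measured called higher and 1 called lower for NICD1 in the authors' deposited table. For JICD1, 1 of 5 measured was called higher and 1 lower. Of 5 microglia markers, 1 was called lower for JICD1 and none for NICD1 in the authors' deposited tables, with medians of -2.79 and 0.96. Among all genes 2.81% were called for JICD1 and 2.61% for NICD1. The part of these marker values in the results below was not tested.

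With NICD1 no glycolytic enzyme was called, though the highest enzyme score in the authors' deposited table, 0.790, fell just short of the threshold. The authors' deposited table called 5 of 36 genes, all of them higher: Pdk1, Bnip3, P4ha2, P4ha1 and Vegfa. Of all genes there, 2.61% were called, 1.64% as higher and 0.97% as lower ones. At that share, no call among the 15 enzymes is an ordinary count. For JICD1 the called genes were 2 of 36, Bnip3 higher and Ddit4 lower in the authors' deposited table, where 2.81% of all genes were called, 1.07% higher and 1.74% lower. Among protein-coding genes alone, a background chosen after seeing the data, 3.45% were called for JICD1 and 3.21% for NICD1. A log2 ratio of 1 or more in either direction was reached by 8 of 36 genes for JICD1, beside 28.9% of all genes and 23.6% of protein-coding genes in the authors' deposited table. For NICD1 10 of 36 reached it, beside 28.7% of all genes and 23.8% of protein-coding genes in the authors' deposited table. By size of ratio alone, then, the shares of the 36 genes, 22.2% for JICD1 and 27.8% for NICD1, did not stand out from these backgrounds.

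**Figure D1:**
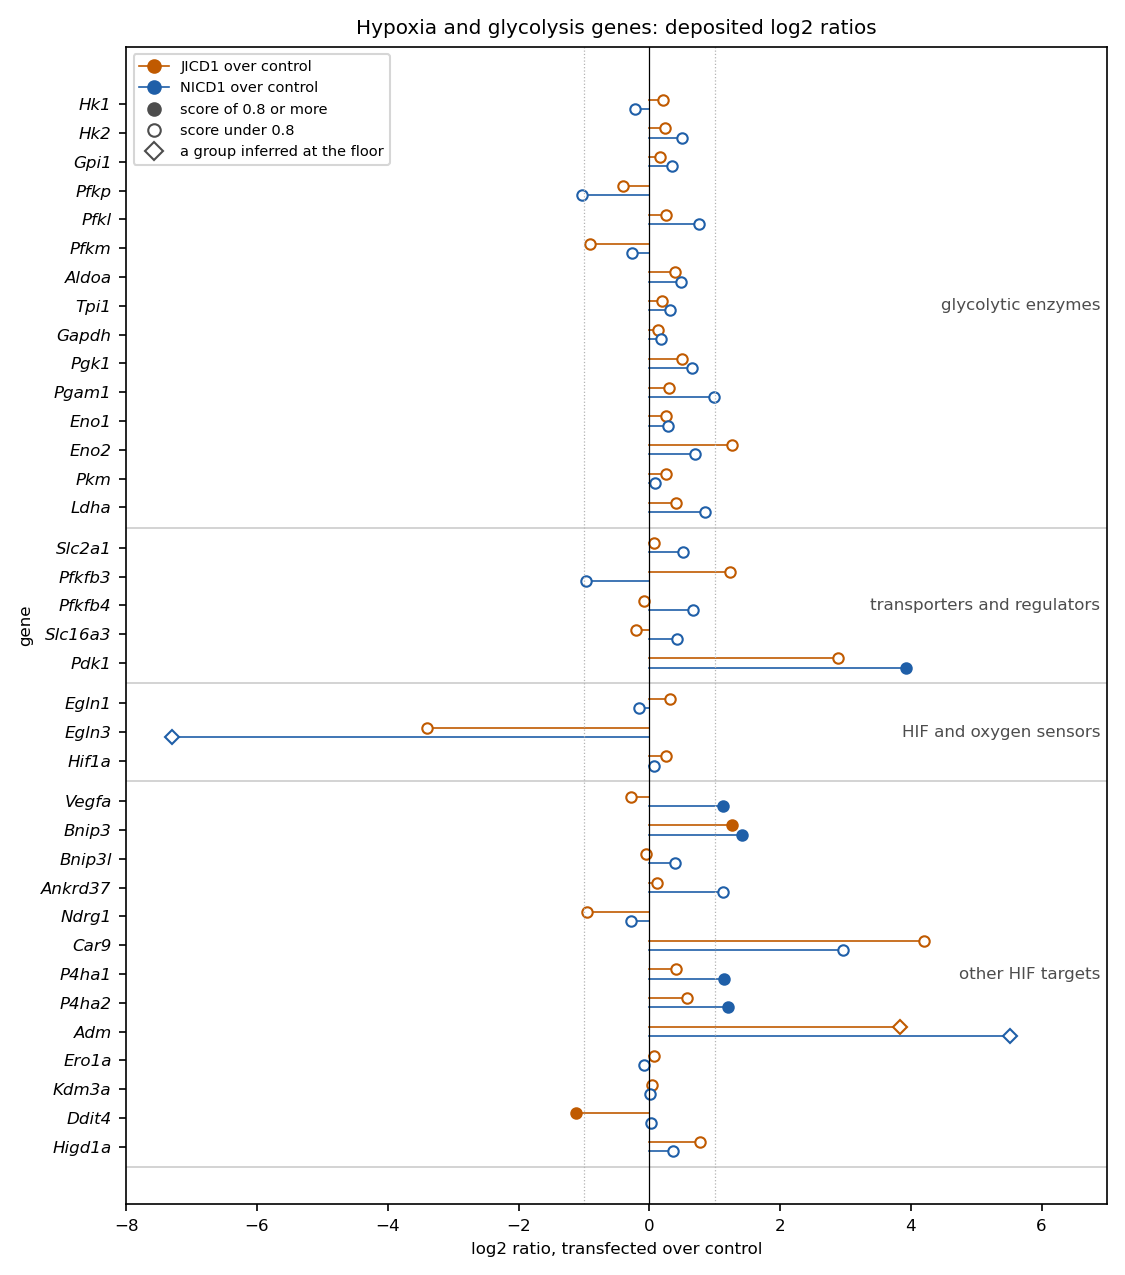
Deposited log2 ratio of each of the 36 genes (horizontal axis, transfected over control), by role, for JICD1 (orange) and NICD1 (blue); filled points have a score of 0.8 or more, diamonds have a group inferred at the floor, and dotted lines mark log2 ratios of -1 and 1. The 15 glycolytic enzymes lie between -1.04 and 1.27, while Pdk1, Adm and Car9 lie far to the right and Egln3 far to the left.

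Of the 15 glycolytic enzymes in the authors' deposited tables, 13 lay above 0 for JICD1 and 12 for NICD1, with medians of 0.25 and 0.35 against 0.045 and -0.016 over all genes. None was called in either comparison, beside 2.81% of all genes for JICD1 and 2.61% for NICD1. At such shares no call among 15 genes is an ordinary count. The highest enzyme score was 0.760 for JICD1 and 0.790 for NICD1 in the authors' deposited tables. Both comparisons use the same control libraries, so a like direction in the 2 is not independent. Above 0 lay 54.5% of all genes for JICD1 and 48.5% for NICD1.

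At the entry to the pathway, the hexokinase genes Hk1 and Hk2, whose products trap glucose as glucose 6-phosphate, stood at 0.20 and 0.23 for JICD1 and at -0.22 and 0.50 for NICD1 in the authors' deposited tables. Gpi1, the isomerase that makes fructose 6-phosphate, stood at 0.16 and 0.35 in the authors' deposited tables. The 3 genes of phosphofructokinase, the committed step, did not all go the same way. Pfkl, the liver-type subunit, had a NICD1 log2 ratio of 0.76 (score 0.760) in the authors' deposited table, after 0.25 for JICD1. Pfkp, the platelet-type subunit, had -1.04 (score 0.777) with NICD1 and -0.40 with JICD1 in the authors' deposited tables. The muscle-type Pfkm had -0.91 (score 0.753) for JICD1 and -0.26 for NICD1 in the authors' deposited tables. Pfkp and Pfkm were thus the 2 enzymes below control in both comparisons.

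The middle of the pathway stayed within a narrow band. Aldoa, the aldolase that splits the sugar, stood at 0.39 for JICD1 and 0.48 for NICD1, and the triose isomerase gene Tpi1 at 0.20 and 0.32 in the authors' deposited tables. Gapdh, often used as a reference gene, had 0.14 and 0.17 in the authors' deposited tables, ratios of 1.10-fold and 1.13-fold. The ATP-forming kinase gene Pgk1 stood at 0.50 and 0.66 in the authors' deposited tables. Of these 4 genes none reached a log2 ratio of 1 in either comparison.

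In the lower pathway the mutase gene Pgam1 was the NICD1 enzyme nearest to a call. Its log2 ratio was 0.99 (1.98-fold over control, score 0.790) in the authors' deposited table, against 0.30 and 0.537 for JICD1. Eno2, the neuron-type enolase, was the single enzyme past a log2 ratio of 1 for JICD1, at 1.27 (score 0.760), with 0.70 for NICD1 in the authors' deposited tables. The common enolase gene Eno1 stood at 0.26 and 0.29 and the pyruvate kinase gene Pkm at 0.26 and 0.09 in the authors' deposited tables. Ldha, which makes lactate, stood at 0.40 (score 0.672) for JICD1 and 0.85 (score 0.782) for NICD1 in the authors' deposited tables. Its sister gene Ldhb, whose subunit favours the reverse step, had 0.85 for JICD1 and -1.38 (score 0.821) for NICD1 in the authors' deposited tables. Ldha and Ldhb thus lay on opposite sides of control with NICD1, and both lay above it in the libraries labelled JICD1.

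Several of these enzymes have many processed pseudogenes, and the sources used here do not say how reads shared with such copies were assigned. The authors' deposited tables list pseudogenes as rows of their own, and by the protein hit given for each row 132 belonged to Gapdh for JICD1 and 140 for NICD1. These Gapdh copies ranged from -4.24 to 4.32 for JICD1 and from -3.94 to 4.73 for NICD1 in the authors' deposited tables, with medians of 0.093 and 0.38, and none was called. Ldha had 6 copies in each of the authors' deposited tables, with medians of 1.54 and 1.65 and none called. Bnip3, which is not an enzyme of the pathway, had 1 copy for JICD1, at 1.98 (score 0.205) in the authors' deposited table, and none for NICD1. The values of Gapdh, Ldha, Pgam1, Aldoa, Eno1, Pkm and Bnip3 are uncertain to the extent that reads were shared with such copies. An overlapping gene on the opposite strand, with a ratio of its own in the authors' deposited tables, was found for 11 of the 36 genes, and the sources used here do not say whether counting used strand. Among them was Pfkm, which overlaps Senp1 (-0.36 and -0.48 in the authors' deposited tables). None of the 6 genes called in either comparison was among these 11, though Bnip3 overlaps opposite-strand genes that have no ratio. The description of 25 of the 36 genes in the authors' deposited tables names 1 Ensembl transcript, which is protein coding for 9 of them, and whether the ratio rests on that transcript is not stated.

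Among the 5 transporters and regulators of glycolysis, Pdk1 was the one called, and it had the largest ratio among the called genes of the set. It encodes the kinase that inactivates pyruvate dehydrogenase and so keeps pyruvate out of mitochondria. Its NICD1 log2 ratio was 3.92 (15.1-fold over control, score 0.901) in the authors' deposited table. For JICD1 it stood at 2.89, 7.41-fold, and its score of 0.783 falls short of a call in the authors' deposited table. Both groups therefore stood well above control for Pdk1, and 97.2% of all genes had a lower NICD1 ratio.

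Slc2a1, the main glucose carrier of many cells, stood at 0.51 (score 0.710) for NICD1 and at 0.075 for JICD1 in the authors' deposited tables. Slc16a3, a lactate exporter, stood at 0.42 for NICD1 and -0.20 for JICD1 with scores of 0.276 and 0.196 in the authors' deposited tables. The bifunctional enzyme genes Pfkfb3 and Pfkfb4 set the level of fructose 2,6-bisphosphate, the strongest activator of phosphofructokinase. Pfkfb3 went opposite ways in the authors' deposited tables, at 1.24 (score 0.641) for JICD1 and -0.97 (score 0.474) for NICD1. Pfkfb4 stood at -0.077 for JICD1 and 0.67 (score 0.616) for NICD1 in the authors' deposited tables. Neither Pfkfb gene was called.

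Neither HIF nor its oxygen sensors were called. The transcript of Hif1a, the regulated alpha subunit, stood at 0.26 for JICD1 and 0.077 for NICD1 in the authors' deposited tables. HIF is set mainly through protein stability, which these tables do not measure. Egln1, the main HIF prolyl hydroxylase, stood at 0.31 and -0.15 in the authors' deposited tables. Egln3, a hydroxylase that is itself a HIF target in many cells, was far below control in both comparisons. Its JICD1 log2 ratio was -3.40, 10.6-fold lower (score 0.692), in the authors' deposited table. The NICD1 value of Egln3 was -7.29 (score 0.796) in the authors' deposited table, just short of a call. Its NICD1 ratio and score lay on the curve formed by 694 genes that have the same negative ratio in both of the authors' deposited tables. That curve is read here, as an inference, as the place of genes with 1 group at a common floor, and Egln3 therefore gets no fold for NICD1.

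In the authors' deposited table for NICD1, 11 of the 13 other HIF targets lay above 0, 7 reached a log2 ratio of 1 or more and 4 were called, with a median of 1.12. For JICD1 the authors' deposited table had 9 of 13 above 0, 3 at 1 or more, 1 called higher and 1 called lower, with a median of 0.11. A log2 ratio of 1 or more was found for 16.6% of all genes with NICD1 and for 14.5% with JICD1, and one of -1 or less for 12.1% and 14.4%. Of all genes 1.64% were called higher with NICD1 and 1.07% with JICD1, and 0.97% and 1.74% were called lower. Without Adm, which has its control at the inferred floor, the NICD1 median was 0.76.

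Bnip3, a mitophagy receptor on the outer mitochondrial membrane, was called in both comparisons. It stood at 1.27 (2.41-fold, score 0.811) for JICD1 and at 1.41 (2.66-fold, score 0.829) for NICD1 in the authors' deposited tables. Its relative Bnip3l stood at -0.049 and 0.39 in the authors' deposited tables. The 2 collagen prolyl hydroxylase genes were called with NICD1: P4ha1 stood at 1.15 (2.21-fold, score 0.823) and P4ha2 at 1.20 (2.30-fold, score 0.809) in the authors' deposited table. For JICD1 P4ha1 stood at 0.40 and P4ha2 at 0.57, neither called in the authors' deposited table. Vegfa, the vessel growth factor, stood at 1.12 (2.18-fold, score 0.819) for NICD1 and at -0.28 (score 0.537) for JICD1 in the authors' deposited tables. Ddit4, an inhibitor of mTORC1 signalling, was the gene called lower for JICD1, at -1.13 (2.19-fold lower, score 0.808), and stood at 0.024 for NICD1 in the authors' deposited tables.

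Large ratios with low scores were found for Car9 and Adm. Car9, a membrane carbonic anhydrase that exports acid equivalents, stood at 4.20 for JICD1 and 2.96 for NICD1 with scores of 0.525 and 0.368 in the authors' deposited tables. Adm, which encodes the vasodilator peptide adrenomedullin, stood at 3.84 and 5.52 with scores of 0.361 and 0.579 in the authors' deposited tables. Both Adm values lay on the same curve, so its control was inferred to be at the floor and its fold is left out. Ankrd37 stood at 0.11 for JICD1 and 1.13 (score 0.645) for NICD1 in the authors' deposited tables. Ndrg1, a stress-induced gene that is widely used as a hypoxia marker, went the other way, at -0.95 (score 0.771) for JICD1 and -0.28 for NICD1 in the authors' deposited tables. Kdm3a, a histone demethylase gene, stood at 0.047 and 0.011 and the oxidative folding gene Ero1a at 0.074 and -0.082 in the authors' deposited tables. Higd1a, a small mitochondrial inner membrane protein gene, had 0.77 for JICD1 and 0.36 for NICD1 in the authors' deposited tables. With NICD1, then, 7 targets stood at 1 or more, Kdm3a and Ddit4 were close to 0, and Ero1a and Ndrg1 were below it.

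**Figure D2:**
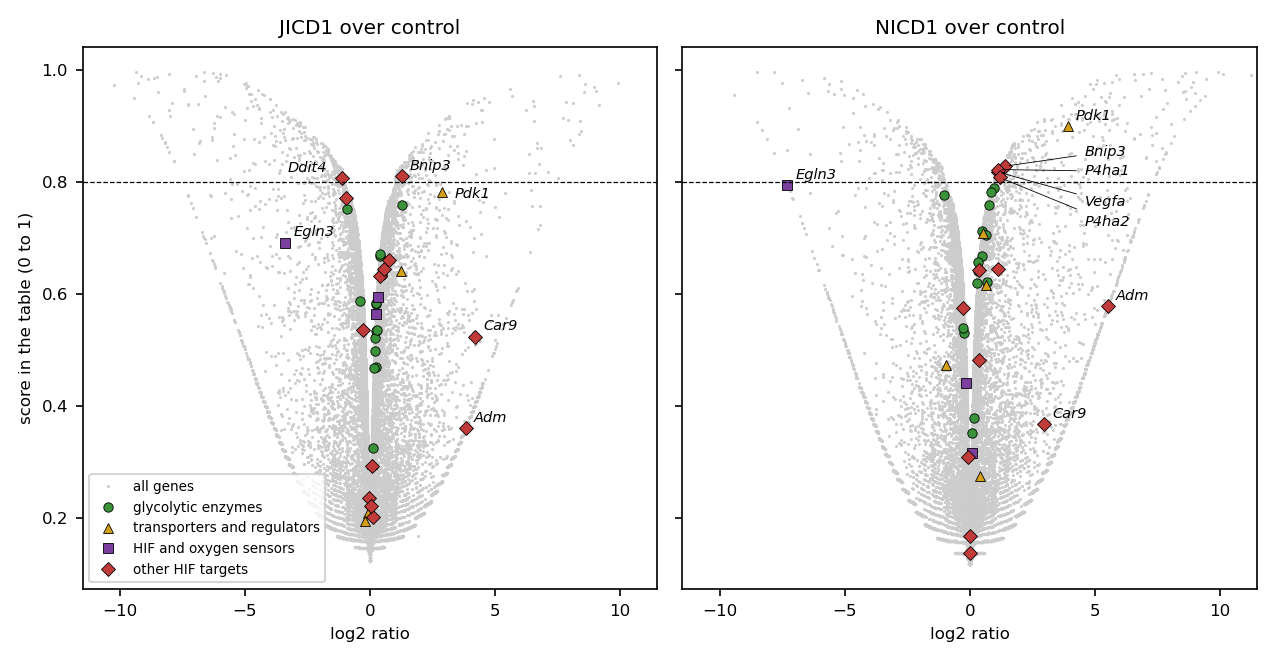
Deposited score (vertical axis, 0 to 1) against log2 ratio (horizontal axis) for all genes (grey) and the 36 genes by role, in the JICD1 (left) and NICD1 (right) comparison; the dashed line marks a score of 0.8. Bnip3 and Ddit4 lie above the line for JICD1 and Pdk1, Bnip3, P4ha1, Vegfa and P4ha2 for NICD1, while Adm lies on the lower edge in both panels.

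The 6 called genes are shown with the bases just before their starts, because HIF is known to bind the core ACGTG or GCGTG and the counts of called genes rest on these 6. The windows come from RefSeq on GRCm38.p6, the assembly also named in the gene descriptions of the authors' deposited tables, although the submitters' processing notes name mm9. Each is printed 5′ to 3′ on the strand of its gene, from 250 bases before the upstream-most start in the RefSeq promoter table up to the first base inside the annotated gene or an exon, and capitals mark each core on either strand, with overlapping cores joined.
Pdk1: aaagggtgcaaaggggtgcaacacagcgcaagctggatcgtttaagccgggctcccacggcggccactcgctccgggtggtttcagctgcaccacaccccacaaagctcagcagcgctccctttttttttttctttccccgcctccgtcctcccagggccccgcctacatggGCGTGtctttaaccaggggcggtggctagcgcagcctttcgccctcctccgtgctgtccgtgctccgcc
Bnip3: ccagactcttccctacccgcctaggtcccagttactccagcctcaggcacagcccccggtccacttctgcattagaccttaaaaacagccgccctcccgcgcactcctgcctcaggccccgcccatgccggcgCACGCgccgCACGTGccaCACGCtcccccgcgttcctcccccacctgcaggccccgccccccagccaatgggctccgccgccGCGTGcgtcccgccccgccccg
P4ha1: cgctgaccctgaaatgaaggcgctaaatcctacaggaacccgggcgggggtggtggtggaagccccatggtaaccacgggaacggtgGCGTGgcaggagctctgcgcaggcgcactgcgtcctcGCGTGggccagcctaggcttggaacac
P4ha2: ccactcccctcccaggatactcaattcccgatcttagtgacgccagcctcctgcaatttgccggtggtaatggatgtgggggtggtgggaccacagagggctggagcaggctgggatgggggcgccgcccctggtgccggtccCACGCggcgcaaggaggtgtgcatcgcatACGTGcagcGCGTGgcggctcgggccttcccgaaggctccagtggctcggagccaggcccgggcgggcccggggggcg
Vegfa: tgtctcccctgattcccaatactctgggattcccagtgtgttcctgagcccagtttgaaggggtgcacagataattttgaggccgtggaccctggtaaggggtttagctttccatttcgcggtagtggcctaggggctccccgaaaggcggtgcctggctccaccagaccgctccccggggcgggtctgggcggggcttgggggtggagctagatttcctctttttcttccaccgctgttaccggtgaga
Ddit4: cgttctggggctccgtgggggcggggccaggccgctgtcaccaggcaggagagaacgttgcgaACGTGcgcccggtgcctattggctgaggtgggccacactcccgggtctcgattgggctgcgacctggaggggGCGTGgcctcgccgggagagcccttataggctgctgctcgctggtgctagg

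The Pdk1 window lies at chr2:71872974-71873214 on the plus strand and is shortened by 9 bases that lie in the annotated gene or an exon. It holds 1 core, at bases -78 to -74 from its upstream-most start. For Bnip3 the window at chr7:138909520-138909756 on the minus strand is shortened by 13 such bases. It holds 4 marked runs, of which 3 lie between bases -117 and -95 from its upstream-most start. The P4ha1 window at chr10:59323046-59323196 on the plus strand is shortened by 99 bases that lie in the annotated gene, and it shows 2 of 3 cores. P4ha2, at chr11:54100674-54100923 on the plus strand, holds 3. Ddit4, at chr10:59951835-59952020 on the minus strand, is shortened by 64 such bases and holds 2. Vegfa, at chr17:46032378-46032627 on the minus strand, holds none in this window, which says only that these letters are not there.

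Windows of 250 bases were matched for 34 of the 36 genes, and 27 of 34 held at least 1 core, beside 38.6% of 27025 genes and 44.9% of 16522 protein-coding genes. A core was held by 9 of 15 glycolytic enzyme windows and by 10 of 11 windows of the other HIF targets. All 5 transporter and regulator windows and all 3 HIF and sensor windows held one. Base composition moved with this count: the median GC content was 63.4% for the 34 windows and 56.0% for protein-coding genes. It was 58.4% for enzyme windows and 69.6% for windows of the other HIF targets, so these role groups were not matched in composition. Among windows with a GC content of 60% or more, 18 of 19 held a core, beside 65.4% of such protein-coding windows. Ldha, Pgam1 and Pfkp held 3 cores each although none was called, and Pfkp stood below control. A match describes letters in a window and is not a measured binding site.

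**Figure D3:**
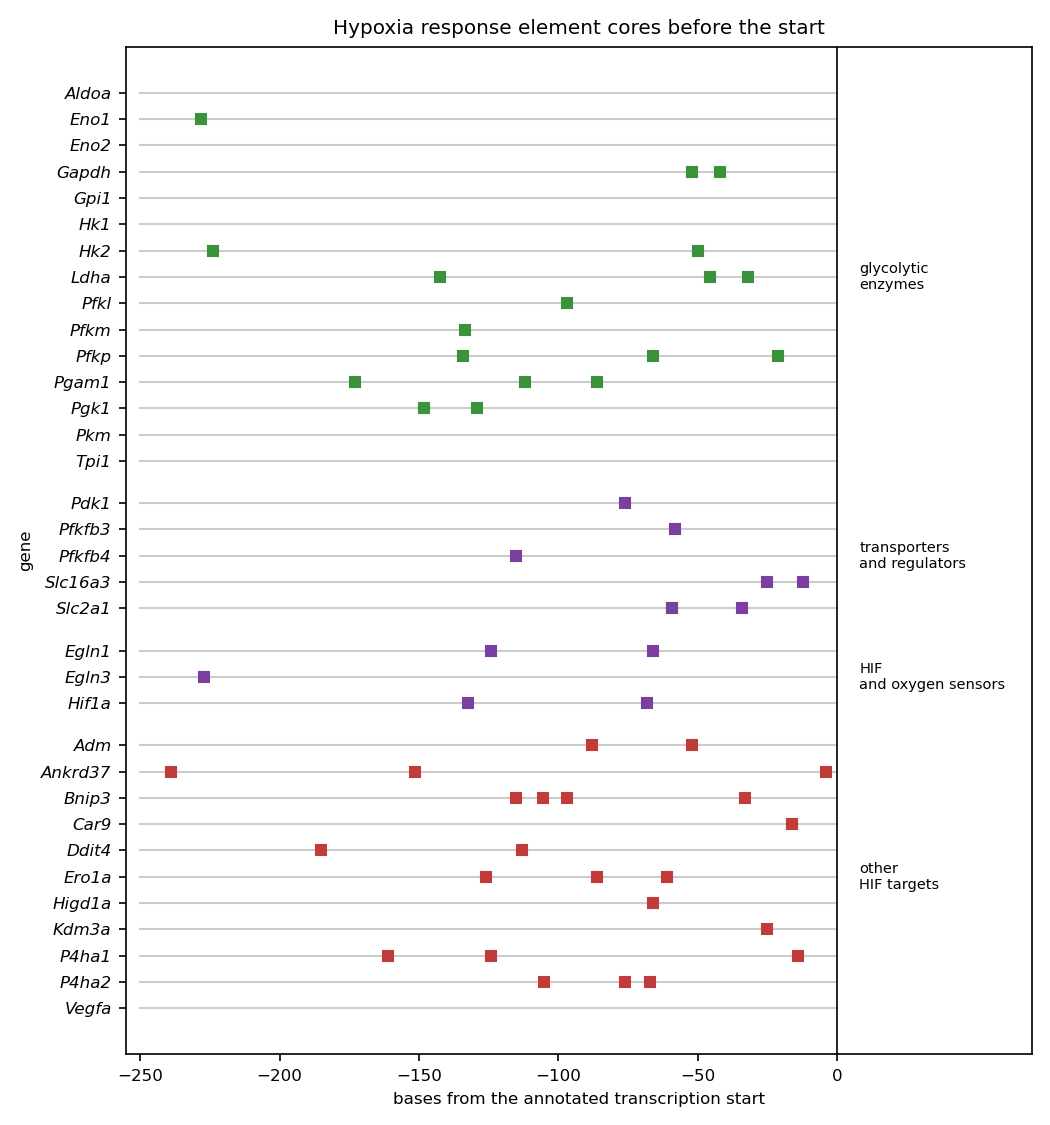
Positions of the cores (squares) along the 250 bases before the upstream-most RefSeq start of 34 genes, in bases from that start at 0 and grouped by role. For P4ha1 the last 99 of these bases lie in the annotated gene, and so does its core at -16. Bnip3 has 4 marked runs and P4ha1 and P4ha2 have 3 each, while 6 of 15 glycolytic enzymes and Vegfa have none.

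The glycolytic enzymes were then set against the other HIF targets. In the NICD1 comparison no enzyme and 7 of 13 other HIF targets reached a log2 ratio of 1 or more, and no enzyme and 4 of 13 targets were called, from the authors' deposited table. Of all genes, 16.6% reached that ratio and 2.61% were called for NICD1, and 14.5% and 2.81% for JICD1. The absence of enzyme calls thus lies near the share of all genes. The contrast in calls rests on the threshold. At a score of 0.7 the enzymes Pgam1, Ldha, Pfkl, Aldoa, Pgk1 and, as lower, Pfkp would be called too, and no further target. The median NICD1 score was 0.657 for enzymes and 0.579 for targets in the authors' deposited table. The median log2 ratios there were 0.35 for enzymes and 1.12 for targets. The target median was 0.76 without Adm, and with only the symbols that the authors' deposited table prints the medians were 0.093 and 0.19, over fewer genes. In the libraries labelled JICD1 the enzyme median of 0.25 stood above the target median of 0.11, from the authors' deposited table, and the 2 called genes were both targets. By the mean that order turned, with 0.22 for enzymes and 0.68 for targets, and 3 of 13 targets against 1 of 15 enzymes reached a log2 ratio of 1 in the authors' deposited table. The targets were also more spread, from -1.13 to 4.20 for JICD1 and from -0.28 to 5.52 for NICD1, where enzymes ranged from -0.91 to 1.27 and from -1.04 to 0.99 in the authors' deposited tables. Egln3, itself a HIF target in many cells, is grouped with the sensors and enters neither side. It stood at -3.40 and -7.29 in the authors' deposited tables. With no library values the difference between the role groups could not be tested over samples.

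Subtracting the authors' deposited log2 ratios gives NICD1 over JICD1 with the shared control removed. Of 36 genes 24 stood higher with NICD1, beside 43.7% of all genes. The median difference was 0.12 over the enzymes and 0.63 over the other HIF targets, against -0.040 over 18182 genes in both of the authors' deposited tables. A difference of 1 or more was found for 24.2% of all genes. NICD1 stood higher by that much for 5 of 36 genes and JICD1 for 3, beside 13.6% and 10.6% of all genes in the authors' deposited tables. The 5 were Adm (1.68), Vegfa (1.40), Ddit4 (1.15), Pdk1 (1.03) and Ankrd37 (1.02), from the authors' deposited tables. The 3 were Egln3, Pfkfb3 (-2.20) and Car9 (-1.23), from the authors' deposited tables. No glycolytic enzyme was in either group; the widest in each direction were 0.69 for Pgam1 and -0.64 for Pfkp in the authors' deposited tables.

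The rest of the HIF machinery, which holds partner subunits, the VHL ligase and coactivators, had 13 measured members with none called in either of the authors' deposited tables and medians of 0.070 and 0.016. Epas1, the gene of HIF-2alpha, stood at 1.10 (score 0.330) for JICD1 and 3.40 (score 0.755) for NICD1 in the authors' deposited tables, the largest ratio of that list. Of 35 further hypoxia-induced genes measured, 3 were called lower for JICD1 and 1 higher for NICD1 in the authors' deposited tables, with medians of 0.038 and 0.22. Among all genes 1.74% were called lower for JICD1 and 1.64% higher for NICD1, so the NICD1 count lies near that share. Plod1, a collagen lysyl hydroxylase gene, at -1.49 and the peptide amidase gene Pam at -1.13 were among those called lower for JICD1 in the authors' deposited table. The NICD1 median of 0.22 of these further genes lies below the 1.12 of the 13 targets, and both lists were chosen with earlier results of these data known.

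Among other isozymes, gluconeogenic enzymes and transporters, 17 were measured for JICD1 and 19 for NICD1, with medians of -0.50 and -0.46 and 2 called lower in each of the authors' deposited tables. Of these, 4 and 3 had a group inferred at the floor, and the median scores were low at 0.311 and 0.314. Among all genes 1.74% were called lower for JICD1 and 0.97% for NICD1. Bpgm, which makes 2,3-bisphosphoglycerate from a glycolytic intermediate, was called in both comparisons, at -3.07 (score 0.914) and -1.21 (score 0.828) in the authors' deposited tables. Eno3, the muscle enolase, stood at -2.60 (score 0.899) for JICD1 and -0.59 for NICD1 in the authors' deposited tables. It thus lay below control in the libraries labelled JICD1, where Eno1 and Eno2 lay above it.

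In the lists for pyruvate entry, the citric acid cycle and the pentose phosphate pathway, which leave out Pdk1 and Ldhb, no gene was called in either of the authors' deposited tables. Of 13 genes for pyruvate entry into mitochondria, Pdk4, another pyruvate dehydrogenase kinase, stood at -3.53 (score 0.552) for JICD1 and 2.56 (score 0.798) for NICD1 in the authors' deposited tables. Pdk2 stood at -0.10 and -1.04 and Pdk3 at -0.46 and -0.15 in the authors' deposited tables, so Pdk1 and Pdk4 were the kinase genes above control with NICD1. All 16 citric acid cycle genes lay below 0 with NICD1, from -0.43 to -0.0051 with a median of -0.19, and 10 of 16 lay above 0 with JICD1 in the authors' deposited tables, with a median of 0.021. The 7 pentose phosphate genes had medians of -0.052 and -0.098 in the authors' deposited tables.

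**Figure D4:**
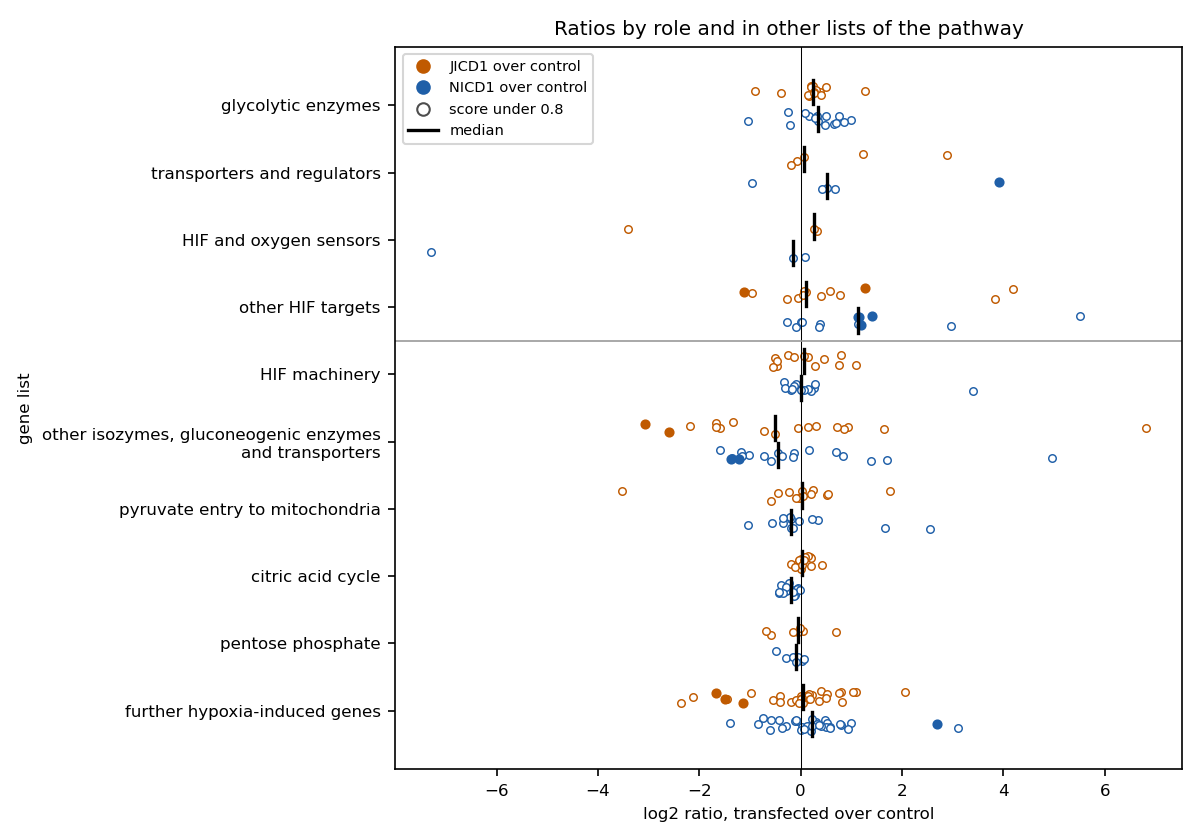
Deposited log2 ratios (horizontal axis) of the 4 role groups (above the grey line) and of 6 other lists of the pathway, for JICD1 (orange) and NICD1 (blue); filled points have a score of 0.8 or more and black bars are medians. The NICD1 median of the other HIF targets is 1.12, and the 16 citric acid cycle genes all lie below 0 with NICD1.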

How the data were processed

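RNA-seq of 9 libraries in 3 groups was used as 2 deposited tables. Per the file headers, the authors give each gene a log2 ratio of a transfected group over control and a score named Probability; the sources used here do not say how the score, the counting, the scaling or the joining of libraries was done. The submitters' processing notes list Bowtie2, BWA and mm9, with no role given. The tables hold 0 unused columns of per-sample values, so the depth is unknown and no test, error or replicate comparison was made.

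Genes were matched by table symbol or by NCBI or Ensembl ID through RefSeq GRCm38.p6 and GENCODE vM21, which named 18681 of 18971 genes (JICD1) and 18998 of 19287 (NICD1). Only 12 and 11 of the 36 genes carry their own symbol. The members, lists and threshold were chosen with earlier results of these data known. Genes with a score of 0.8 or an absolute log2 ratio of 1 in either table are named, and up to 4 called genes of each other list; a few more were named after their values were seen (Epas1, Pdk2, Pdk3, Pdk4), and 1 gene of the other lists is not reported here. Floor calls use genes with equal negative ratios (tolerance 1e-06) and a score within 0.002 of their curve (0.01 above a log2 of 6), for ratios of at least 1. Scripts (Python 3.11.15, pandas 2.3.3) were tested on simulated data.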

Additional observations from a re-analysis of the deposited data

How the results depend on the processing

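No paired analysis was possible because the deposited tables hold no value per library; leaving out a replicate was not run for the same reason. Of 36 alternative values for 8 results, 24 stayed within 1.5 times the reported count or 0.1 of the reported log2 median, and 12 moved further; no median changed sign. The order of enzymes and other HIF targets for JICD1 turned with the mean in place of the median (0.22 and 0.68 against 0.25 and 0.11). At a score of 0.7, 6 genes were called for JICD1 and 13 for NICD1, and at 0.85 there were 0 and 1 (Pdk1), so every count of calls rests on the threshold. The absence of glycolytic enzymes among the called genes rests on it too, and it lies near the share of all genes called. With only the symbols the tables print, 1 gene was called in each comparison, 3 and 3 passed a log2 ratio of 1, and the NICD1 medians were 0.093 for the glycolytic enzymes and 0.19 for the other HIF targets; fewer genes were measured then. Without Adm, at the inferred floor, the NICD1 median of the other HIF targets was 0.76.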
